A study of Homo sapiens with 6 samples.

Results

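Collagen gene expression was examined in CAL27, a line grown from a squamous carcinoma of the tongue, and compared between cells overexpressing RBM24 (3 libraries) and cells given a control plasmid (3 libraries). RBM24 is an RNA-binding protein best known for its control of splicing in heart and skeletal muscle. The members were the protein-coding genes of the deposited count table whose symbol names a collagen alpha chain, with COL17A1 set aside by the rule. They numbered 41 of 32353 genes, and 24 of them had enough counts to be among the 17887 genes tested. The labels name no promoter of the expression plasmid, no time after transfection and no clone, nor do they tell if each replicate was its own culture. P-values therefore measure only the spread between these libraries, which may be technical.

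Collagens are secreted or membrane-bound proteins in which chains wind around each other into a triple helix. The fibrillar collagens, such as types I, III and V, form the tensile fibrils of connective tissue and are made mainly by fibroblasts. Type IV collagen forms the network of basement membranes, type VII forms the anchoring fibrils that tie the epithelium to the dermis or lamina propria, and the FACIT collagens sit on the surface of fibrils. Many collagens are heterotrimers, so that a cell needs several chain genes to assemble 1 molecule.

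The libraries held between 53558773 and 68804210 gene counts. RBM24 itself stood between 109 and 125 CPM (counts scaled to a common library total with TMM factors) in the RBM24 libraries and between 2.35 and 3.50 in the control libraries, a log2 fold change of 5.34 (SE 0.0995, edgeR quasi-likelihood test with Benjamini-Hochberg adjustment over all tested genes, adjusted p = 2.16e-15). The groups did not overlap, so the overexpressed gene went with the labels. The squamous markers were present at very different levels, with KRT5 at 674 ± 5.63 CPM in the RBM24 libraries and 650 ± 32.9 in the control libraries, and TP63 at 111 ± 5.70 CPM with RBM24 and 116 ± 6.30 in the controls (SD, n = 3 each). KRT14 was low, at 4.37 ± 0.600 CPM with RBM24 and 4.16 ± 0.608 in the controls, and DSG3 stood at 11.0 ± 0.874 and 11.8 ± 1.18 (SD, n = 3 each). The 9 squamous markers summed to 1921 to 1935 CPM with RBM24 and 1733 to 1833 CPM in the controls, with no overlap. Among all tested genes taken singly, the groups did not overlap in 18.1%. At an adjusted p under 0.05 (edgeR), 0 of the 9 were called, against 1.54% of all tested genes. An unadjusted p under 0.05 (edgeR) was found for 3 of the 9, against 13.0% of all tested genes. SFN came closest (log2 change 0.24, edgeR adjusted p = 0.0509), followed by CDH1 (0.17, adjusted p = 0.106), while TP63 and DSG3 had -0.07 and -0.11. Markers of other cell types had lower sums, of 18.3 to 20.3 CPM with RBM24 and 17.1 to 19.0 CPM in the controls for 12 fibroblast markers. Most of that sum came from PDPN (mean 5.81 CPM with RBM24 and 6.33 in the controls), S100A4 (5.21 and 3.98), PDGFRB (3.62 and 3.21) and ACTA2 (2.66 and 3.00). In the same list THY1, POSTN and DCN held at most 5 counts in any library. The summed level of 7 immune markers was 19.3 to 20.3 CPM with RBM24 and 18.8 to 22.0 CPM in the controls, almost all of it CD14, while PTPRC held at most 3 counts in any library. Of 7 endothelial markers 5 had a row, and these summed to 8.73 to 9.72 CPM with RBM24 and 9.53 to 11.7 CPM in the controls, mostly CDH5. Control library 1 stood apart on the main axis of variation, at -33.4 against -4.95 to 15.4 for the other libraries.

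Type IV collagen is encoded by pairs of genes that lie head to head, with start sites a short distance apart. The annotated spans of COL4A1 and COL4A2 overlap in GENCODE 29. The start regions of the 3 plus-strand genes are shown because the results on this class turn on the different levels of the 3 pairs. Each sequence runs 5′ to 3′ on the plus strand from 250 bases before the start to 50 bases from it (RefSeq, build GRCh38.p14), and capitals mark CCAAT and GGGCGG on either strand, which do not overlap here.
COL4A2, chr13:110307034-110307333: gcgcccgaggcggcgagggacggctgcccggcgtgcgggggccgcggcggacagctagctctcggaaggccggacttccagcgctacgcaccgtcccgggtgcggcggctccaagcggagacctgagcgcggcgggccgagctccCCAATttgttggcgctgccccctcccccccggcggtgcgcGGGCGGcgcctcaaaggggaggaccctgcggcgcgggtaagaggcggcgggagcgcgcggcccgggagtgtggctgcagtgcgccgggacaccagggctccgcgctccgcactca
COL4A5, chrX:108439588-108439887: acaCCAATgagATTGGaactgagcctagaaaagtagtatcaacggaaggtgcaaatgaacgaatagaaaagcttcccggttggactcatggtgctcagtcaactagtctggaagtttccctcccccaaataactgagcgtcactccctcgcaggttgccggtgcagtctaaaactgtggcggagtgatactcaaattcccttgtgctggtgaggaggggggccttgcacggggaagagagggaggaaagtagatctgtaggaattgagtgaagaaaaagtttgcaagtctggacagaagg
COL4A3, chr2:227164374-227164673: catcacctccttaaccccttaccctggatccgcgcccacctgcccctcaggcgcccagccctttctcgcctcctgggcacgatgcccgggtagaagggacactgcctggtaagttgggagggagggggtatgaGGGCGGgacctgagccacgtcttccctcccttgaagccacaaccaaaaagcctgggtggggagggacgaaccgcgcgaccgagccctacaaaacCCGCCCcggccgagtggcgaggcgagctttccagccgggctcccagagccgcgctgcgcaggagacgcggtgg
The start sites of COL4A2 and its minus-strand partner COL4A1 lay 126 bases apart in this table, those of COL4A5 and COL4A6 379 bases apart (the nearer of the COL4A6 starts) and those of COL4A3 and COL4A4 418 bases apart. The COL4A2 window was 77.7% G and C, against 67.7% for COL4A3 and 49.3% for COL4A5, where the median of 35116 promoters was 58.7%. CCAAT occurred once in the COL4A2 window, 2 times in that of COL4A5 and not in that of COL4A3; 34.6% of all promoters of this length held it on either strand. GGGCGG occurred once in the COL4A2 window and 2 times in that of COL4A3, against 45.0% of promoters with at least 1 match. TATAAA was in none of the 3 windows and in 11.5% of all promoters. These matches describe letters only. Of the 41 members, 30 had a promoter in the table.

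Levels of different genes were compared per length, on the deposited FPKM values. Of the 41 collagen genes, 14 reached a mean of 1 FPKM over the 6 libraries, 10 passed the count filter below that level and 17 did not pass. The lowest level among the 14 was that of COL1A1, at 1.14 FPKM, and the highest below the line was that of COL11A2, at 0.940 FPKM. COL4A2 led, with 8.13, 8.12 and 7.98 FPKM in the RBM24 libraries and 7.09, 7.86 and 8.19 FPKM in the control libraries. COL6A1, a chain of the beaded filaments of type VI collagen, followed at 6.83, 7.08 and 6.73 FPKM with RBM24 and 5.83, 6.82 and 6.60 FPKM in the controls. The ranges over all 6 libraries of these top genes did not overlap each other or that of COL4A1. From COL4A1 (mean 4.17 FPKM) through COL18A1 (4.06), COL6A2 (3.74), COL9A3 (3.48) and COL7A1 (3.29), each gene's range overlapped that of the next in order. COL5A1 (2.69) and COL9A2 (2.53) came next with overlapping ranges, then COL16A1 (1.87), COL27A1 (1.85), COL4A5 (1.85) and COL12A1 (1.56), again each overlapping the next, and COL1A1 below them all.

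**Figure D1:**
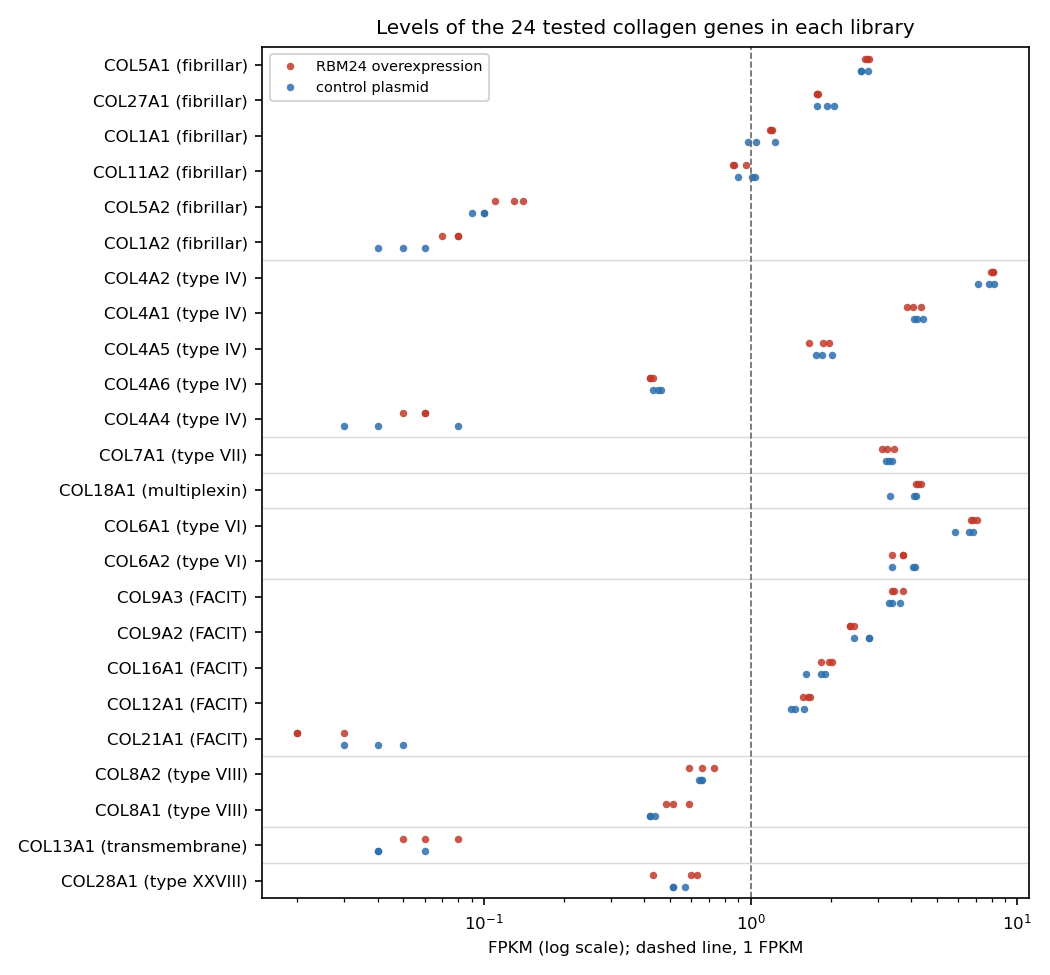
FPKM of the 24 tested collagen genes (log axis), grouped by class from the top down, with 3 RBM24 libraries (red, upper row of each gene) and 3 control libraries (blue, lower row). The dashed line marks 1 FPKM, and COL4A2 and COL6A1 lie farthest to the right in both groups.

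In deposited FPKM, basement membrane collagens and the collagens that are neither fibrillar nor of basement membranes held near-equal parts of the collagen total. Types IV, VII, XV and XVIII together made up 43.1%, 43.0% and 44.3% of the summed collagen FPKM in the RBM24 libraries and 43.5%, 42.9% and 43.5% in the control libraries. Types VI and VIII, the FACIT, transmembrane and remaining collagens made up 43.2%, 43.7% and 42.4% with RBM24 and 42.7%, 43.8% and 42.6% in the controls. Fibrillar genes made up 13.8%, 13.3% and 13.4% with RBM24 and 13.8%, 13.3% and 14.0% in the controls, and the groups overlapped in all 3 shares. Collagen genes took 0.0573%, 0.0580% and 0.0580% of all gene counts in the RBM24 libraries and 0.0536%, 0.0570% and 0.0591% in the control libraries, where the lowest and the highest value were both control libraries. The 8 members with no row in the FPKM table entered these sums as 0.

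Within type IV, the widely used pair was far above the others. COL4A1 (chromosome 13, 110148963 to 110307233, minus strand, GENCODE 29 on GRCh38) encodes the alpha1 chain, of which the common basement membrane trimer holds more copies than of alpha2. It had 3.85, 4.05 and 4.37 FPKM with RBM24 and 4.11, 4.20 and 4.42 FPKM in the controls. Its partner COL4A2 (110305812 to 110513209, plus strand) had 1.98 ± 0.144 times the FPKM of COL4A1 in the RBM24 libraries and 1.82 ± 0.0797 times in the control libraries (SD, n = 3 each). The chains of the pair COL4A5 and COL4A6, which also assemble together in epithelial basement membranes, followed. COL4A5 had 1.65, 1.96 and 1.87 FPKM with RBM24 and 1.86, 1.76 and 2.02 FPKM in the controls, and COL4A6 had 0.42, 0.42 and 0.43 FPKM with RBM24 and 0.46, 0.43 and 0.45 FPKM in the controls. The pair COL4A3 and COL4A4, known from the glomerular basement membrane of the kidney, was near the floor. COL4A4 had 56, 34 and 49 counts with RBM24 and 57, 20 and 35 counts in the controls, and COL4A3 had 7, 18 and 10 counts with RBM24 and 6, 5 and 8 counts in the controls.

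Among the other collagens of the epithelial boundary, COL7A1 (chromosome 3, 48564073 to 48595267), the only chain of the anchoring fibril, had 38.9, 37.0 and 40.9 CPM with RBM24 and 40.1, 41.5 and 39.1 CPM in the controls. COL18A1 (chromosome 21, 45405137 to 45513720), whose C-terminal fragment is endostatin, had 39.6, 38.5 and 37.5 CPM with RBM24 and 31.5, 38.9 and 37.0 CPM in the controls. The low control value was that of control library 1, and the groups overlapped for both genes. The exons of COL18A1 overlap those of SLC19A1 on the opposite strand over 16.4% of their length. No source used here states whether counting used strand, so reads of the 2 genes cannot be told apart there. COL15A1, the other multiplexin, held at most 3 counts in any library.

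Of the fibrillar genes, COL5A1, COL27A1 and COL1A1 passed 1 FPKM, COL11A2, COL5A2 and COL1A2 lay below it, and the other 5 of 11 were near silent. COL5A1 (chromosome 9, 134641774 to 134844843), whose chain starts and limits fibrils of type I, had 33.4, 32.7 and 31.8 CPM with RBM24 and 32.2, 31.9 and 32.8 CPM in the controls. COL1A1 (chromosome 17, 50183289 to 50201632) had 11.6, 11.3 and 11.4 CPM with RBM24 and 9.82, 10.4 and 11.8 CPM in the controls. COL1A2 (chromosome 7, 94394561 to 94431232), the partner chain in ordinary type I collagen, had 68, 50 and 50 counts with RBM24 and 35, 24 and 40 counts in the controls. COL5A2, the partner of COL5A1, had 58, 60 and 63 counts with RBM24 and 39, 45 and 47 in the controls. COL3A1, a defining fibroblast collagen, held 2, 0 and 0 counts with RBM24 and 0 in each control library. A count of 0 allows up to 3 counts, between 0.0436 and 0.0560 CPM at these depths, for counting error only. COL2A1, the cartilage fibril chain, held 3 to 7 counts in every library, COL24A1 held 0 to 7, and COL5A3 and COL11A1 held 0 to 6.

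In other heterotrimers too, chain genes of 1 collagen type stood at very different levels. Type VI collagen is usually built of COL6A1, COL6A2 and COL6A3 chains. COL6A1 (chromosome 21, 45981737 to 46005050) had 2813, 2264 and 2439 counts with RBM24 and 1978, 2239 and 2450 counts in the controls, while COL6A3 had 1, 2 and 5 counts with RBM24 and 5, 3 and 1 in the controls. The chains that can replace COL6A3 were as low, COL6A5 with 6, 5 and 6 counts with RBM24 and 4, 9 and 6 in the controls, and COL6A6 with a total of 1 count over the 6 libraries. Type IX, a FACIT collagen of cartilage, is built of COL9A1, COL9A2 and COL9A3 chains. COL9A3 (chromosome 20, 62816244 to 62841159) had 19.4, 17.8 and 17.5 CPM with RBM24 and 17.8, 19.3 and 17.5 CPM in the controls, whereas COL9A1 held a total of 1 count over the 6 libraries. An overlap of 45 exonic bases with TCFL5 on the opposite strand touches 0.930% of the exon length of COL9A3.

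The FACIT class was mixed, and the type VIII, transmembrane and remaining genes were low or near silent. Of 9 FACIT genes, COL9A3, COL9A2, COL16A1 and COL12A1 passed 1 FPKM. COL12A1, which binds to type I fibrils, had 31.9, 33.0 and 33.5 CPM with RBM24 and 30.9, 29.5 and 31.8 CPM in the controls. COL16A1 had 19.7, 19.9 and 18.1 CPM with RBM24 and 16.7, 19.3 and 18.1 CPM in the controls. The type VIII genes COL8A1 and COL8A2, which form a hexagonal network beneath the endothelium and cornea, lay at a mean of 0.477 and 0.655 FPKM over all libraries. COL28A1 lay at 0.542 FPKM, and the transmembrane collagen COL13A1 had 41, 38 and 59 counts with RBM24 and 31, 24 and 50 in the controls. COL14A1, COL19A1, COL20A1, COL23A1, COL25A1 and COL26A1 did not pass the count filter. Across the 17 near-silent genes, the sum over 6 libraries ranged from 1 to 54 counts.

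The order of levels depended on which gene length was used. Dividing the CPM of a gene by its FPKM gives the length behind the deposited values, up to any difference between the library totals used for the 2 scales. For 19 collagen genes with at least 0.4 FPKM this length was a median 1.08 times the merged length of all annotated exons in GENCODE 29 (range 0.989 to 1.63). Against the principal transcript it was between 1.08 and 3.21 times as long, with COL4A2 at the top, where the implied length was 20827 bases and the principal transcript 6494 bases. On CPM per kilobase of the principal transcript, COL4A2 stood at 25.3, COL4A1 at 9.99, COL6A1 at 9.39 and COL9A3 at 7.30, so that COL4A1 came before COL6A1 and COL9A3 before COL18A1 (5.64). The gap between COL4A2 and COL4A1 was wider on this scale than in FPKM. On the same scale the low partners stood at 0.00458 for COL6A3 and 0.137 for COL1A2, against 1.64 for COL1A1. The number of genes at or above 1 was 15 on this scale, COL11A2 (1.16) joining the 14. Of the 19 genes, the implied length exceeded the principal transcript most for COL4A2 and COL4A1 (3.21 and 2.40 times), both type IV. The near-equal class shares above therefore hold for FPKM only and were not taken on the principal transcript scale.

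**Figure D2:**
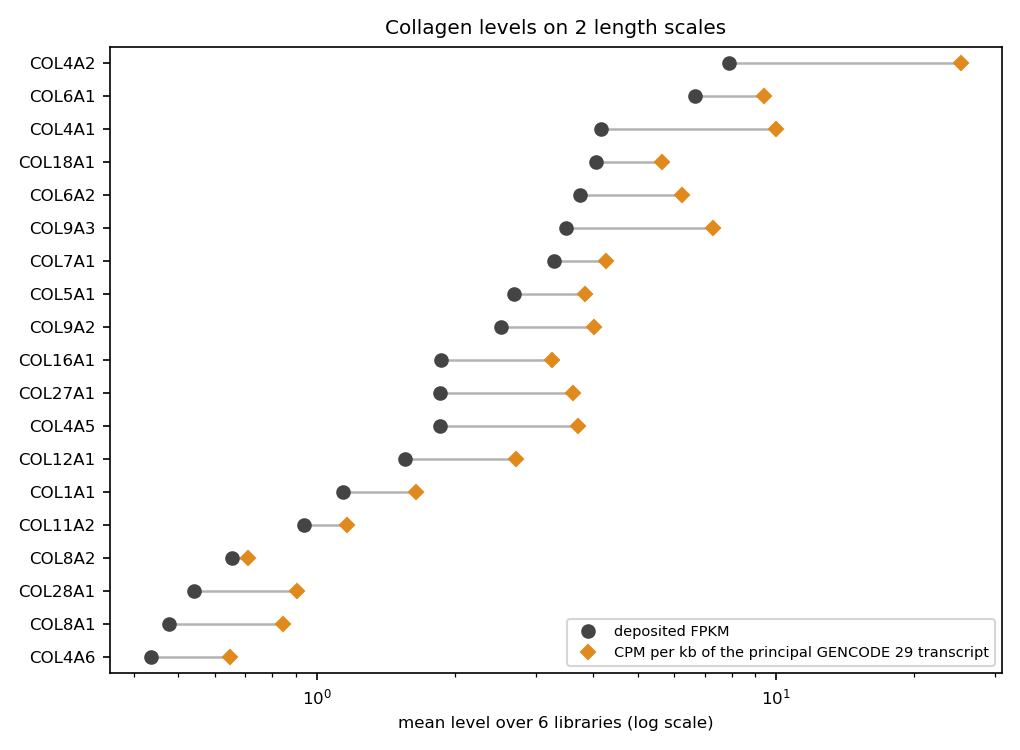
Mean level over 6 libraries (log axis) of the 19 collagen genes with a mean of at least 0.4 FPKM, as deposited FPKM (dark circles) and as CPM per kilobase of the principal GENCODE 29 transcript (orange diamonds). COL4A2 leads on both scales, and the gap between the scales is widest there.

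None of the 24 tested collagen genes passed an adjusted p of 0.05 with RBM24 (edgeR), 0 upward and 0 downward, where 1.54% of all tested genes were called, 0.855% higher and 0.682% lower. By class, that is 0 of 6 fibrillar genes, 0 of 7 basement membrane genes and 0 of 11 others. The lowest adjusted p was 0.182, that of COL1A2. DESeq2 also called 0, with a lowest adjusted p of 0.283, as did limma on the FPKM values. At an unadjusted p under 0.05 the count was 4 of 24 (16.7%), against 13.0% of all tested genes, so that this share was near the background. Log2 changes were positive in 14 and negative in 10, with a median of 0.02, against -0.0037 over all tested genes. Every one of the 14 genes above 1 FPKM had a 95% interval of its fold change inside 0.784 to 1.21, the lower end set by COL9A2 and the upper end by COL1A1. The 10 lower genes had larger standard errors than any of these 14.

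**Figure D3:**
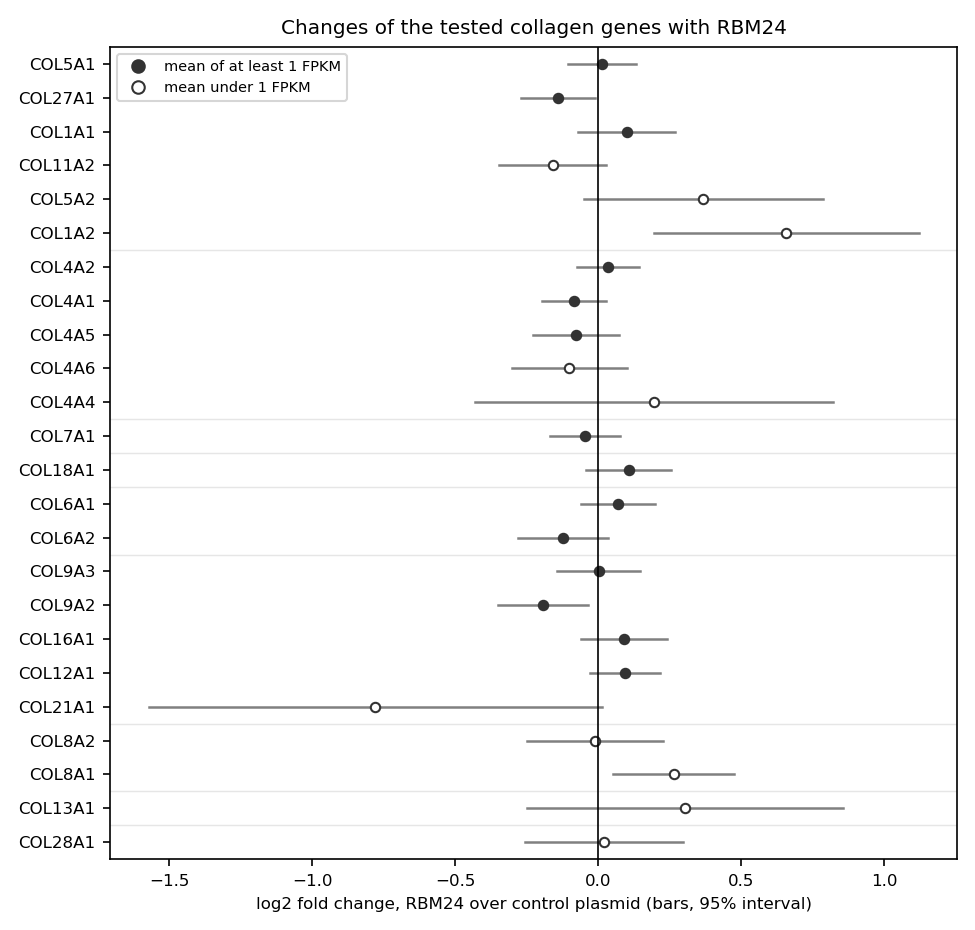
Log2 fold change, RBM24 over control plasmid, of the 24 tested collagen genes with 95% intervals from the edgeR fit (filled points, mean of at least 1 FPKM). The filled points lie within 0.2 of 0, and the widest intervals belong to COL21A1, COL4A4 and COL13A1.

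The most abundant chains showed how narrow these intervals were. COL4A2 averaged 166 ± 2.55 CPM in the RBM24 libraries and 162 ± 8.89 in the control libraries (SD, n = 3 each). Its log2 change was 0.04 (SE 0.0511, edgeR adjusted p = 0.834), with an interval from -0.07 to 0.14. COL4A1 averaged 64.1 ± 3.78 CPM with RBM24 and 68.0 ± 0.890 in the controls (SD, n = 3 each), and its log2 change was -0.09 (adjusted p = 0.529). COL5A1, the leading fibrillar gene, averaged 32.6 ± 0.763 CPM with RBM24 and 32.3 ± 0.441 in the controls (SD, n = 3 each; log2 change 0.01, interval -0.11 to 0.13). COL7A1 had a log2 change of -0.05 (interval -0.17 to 0.08) and COL6A1 of 0.07 (interval -0.06 to 0.20). COL9A3 averaged 18.2 CPM in both groups, with a log2 change of 0.00 (interval -0.14 to 0.15). None of these passed the test, and the groups overlapped for each.

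The groups did not overlap for 7 of 24 genes (29.2%), against 18.1% of all tested genes; 4 were higher with RBM24 (background 9.53%) and 3 lower (background 8.62%), and none passed the adjusted threshold. COL1A2 had 0.985, 0.924 and 0.812 CPM in the RBM24 libraries and 0.636, 0.446 and 0.636 CPM in the control libraries, a log2 change of 0.66 (SE 0.218, interval 0.20 to 1.12, edgeR adjusted p = 0.182). Its level was under 1 CPM in every library. COL1A2 is a fibroblast gene. Of the 12 fibroblast markers, 7 were tested and 0 called, against 1.54% of all tested genes, with summed levels as given above. S100A4 (log2 change 0.39, adjusted p = 0.238) and VIM (0.87, adjusted p = 0.307) had the lowest p. The log2 changes of PDPN and LUM were -0.12 and -0.48. VIM held 10 to 38 counts per library and LUM 21 to 37, both under 1 CPM. The groups overlapped for VIM and not for LUM. POSTN and DCN were at or near 0. The cultures were of a carcinoma line, and the part of any fibroblasts in this difference was not tested. In bulk RNA, more cells of a type and more RNA per cell cannot be told apart. COL8A1 (chromosome 3, 99638475 to 99799226) had 4.84, 5.08 and 5.86 CPM with RBM24 and 4.40, 4.37 and 4.37 CPM in the controls, a log2 change of 0.26 (SE 0.0996, adjusted p = 0.254). COL9A2 (chromosome 1, 40300487 to 40317813) had 10.7, 11.0 and 10.5 CPM with RBM24 and 11.5, 12.9 and 12.4 CPM in the controls (log2 change -0.19, SE 0.0745, adjusted p = 0.267). COL27A1 (chromosome 9, 114155560 to 114312511), a fibrillar collagen of cartilage, had 27.0, 26.5 and 26.6 CPM with RBM24 and 27.7, 29.9 and 30.7 CPM in the controls (log2 change -0.14, SE 0.0607, adjusted p = 0.330). In these 4 genes every RBM24 library lay on one side of every control library, by a margin smaller than the range within at least 1 of the groups. COL5A2 (log2 change 0.37, adjusted p = 0.453), COL12A1 (0.09, adjusted p = 0.540) and COL4A6 (-0.10, adjusted p = 0.714) completed the 7.

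**Figure D4:**
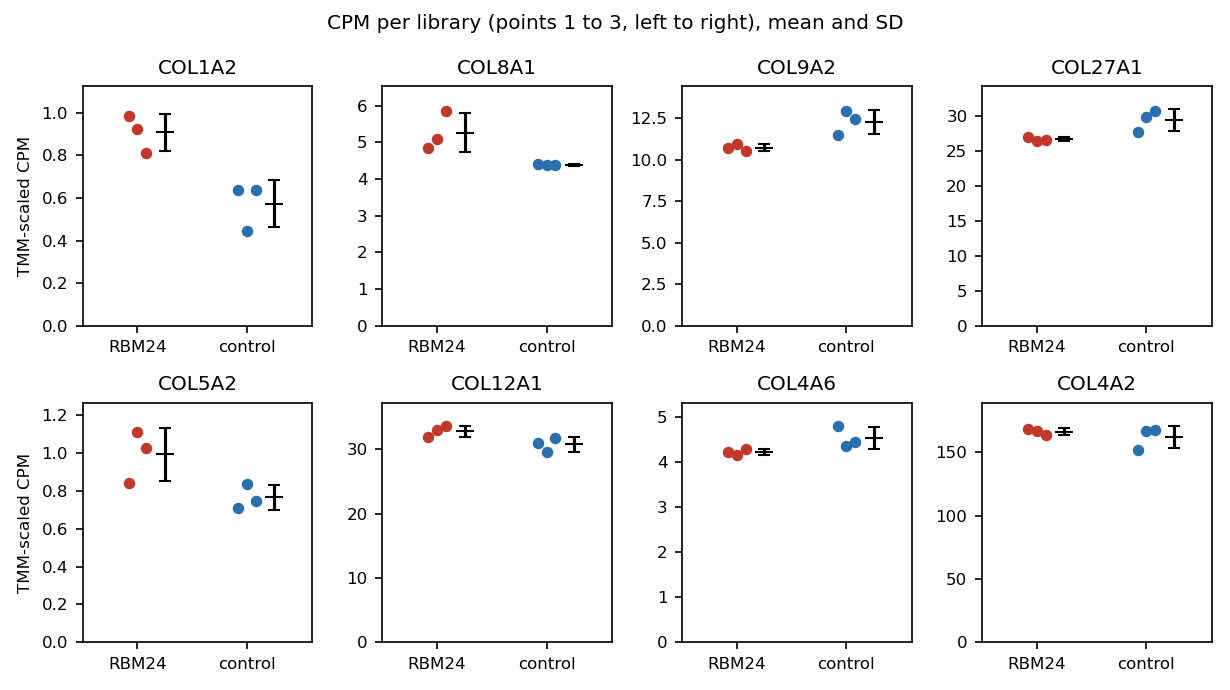
TMM-scaled CPM in each library of the 7 tested collagen genes whose groups did not overlap, and of COL4A2 for comparison, with RBM24 at the left of each panel and the control plasmid at the right; black marks give the mean and SD of 3 libraries. COL1A2 lies at 0.812 to 0.985 CPM with RBM24 and at 0.446 to 0.636 CPM in the controls.

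Among the genes whose groups overlapped, the largest fitted change was that of COL21A1, a FACIT gene with 9, 8 and 14 counts with RBM24 and 17, 12 and 21 counts in the controls. Its log2 change was -0.78 (SE 0.374, interval -1.57 to 0.01, edgeR adjusted p = 0.395). COL4A4 had a log2 change of 0.20, which was 0.67 without control library 1, where the gene stood highest, and -0.07 without control library 2, where it stood lowest. COL13A1 (log2 change 0.30) and COL11A2 (-0.16) did not pass either (adjusted p = 0.677 and 0.479).

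Pairs of chains from 1 collagen type were also set against each other within each library, which takes out library size. The 5 pairs had both chains at 0.4 FPKM or more and were chosen after the levels were seen. For type IV only the head-to-head partners were paired, and its other combinations above that level were not compared. The FPKM ratio of COL6A2 to COL6A1 was 0.545, 0.528 and 0.504 in the RBM24 libraries and 0.580, 0.594 and 0.627 in the control libraries. That of COL9A2 to COL9A3 was 0.633, 0.709 and 0.691 with RBM24 and 0.740, 0.768 and 0.815 in the controls, and that of COL8A1 to COL8A2 was 0.814, 0.699 and 0.894 with RBM24 and 0.656, 0.636 and 0.677 in the controls. In these 3 pairs the groups did not overlap. Each had an exact permutation p of 0.1 (two-sided), the smallest that 3 against 3 allows, and 0.167 after Benjamini-Hochberg adjustment over the 5 pairs, so none could pass 0.05. COL9A2 and COL8A1 also had groups that did not overlap when taken alone, as given above. Their partners COL9A3 and COL8A2 had log2 changes of 0.00 and -0.01, so these ratios are not separate findings. How often ratios of other gene pairs do not overlap was not computed. The ratio of COL4A2 to COL4A1 was 2.11, 2.00 and 1.83 with RBM24 and 1.73, 1.87 and 1.85 in the controls (exact permutation p = 0.3), and that of COL4A6 to COL4A5 was 0.255, 0.214 and 0.230 with RBM24 and 0.247, 0.244 and 0.223 in the controls (exact permutation p = 0.8). COL6A1 and COL6A2 are neighbours on chromosome 21, and neither passed the test alone (log2 changes 0.07 and -0.12, edgeR adjusted p = 0.694 and 0.525).

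**Figure D5:**
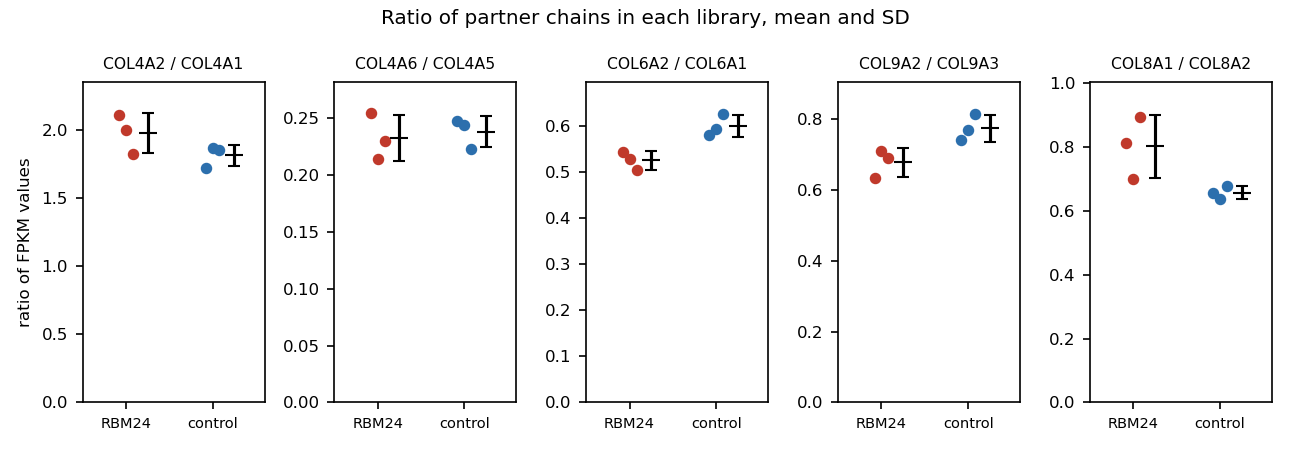
Ratio of the FPKM of 2 chains of the same collagen type in each library, with RBM24 at the left and the control plasmid at the right of each panel; black marks give the mean and SD of 3 libraries. The groups do not overlap for COL6A2 to COL6A1, COL9A2 to COL9A3 and COL8A1 to COL8A2.

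The genes that make, process and bind collagen were counted in 7 lists that hold 75 genes, of which 60 were tested. MMP1 rose and the other 59 did not pass, where 0.855% of all tested genes were called higher. An unadjusted p under 0.05 was found for 12 of the 60, against 13.0% of all tested genes. None of 14 tested genes that modify proline and lysine in the chains passed, with a median log2 change of -0.06. The lysyl hydroxylase gene PLOD1 came closest, at 97.0 ± 1.06 CPM with RBM24 and 109 ± 6.28 in the controls (SD, n = 3 each), with an edgeR log2 change of -0.18 and an adjusted p of 0.116. PLOD2 had a log2 change of -0.21 (adjusted p = 0.189), P3H2, a prolyl 3-hydroxylase gene, of 0.15 (adjusted p = 0.286) and P4HB, the beta subunit of prolyl 4-hydroxylase, of -0.09 (adjusted p = 0.547). PLOD1 passed without control library 1 (log2 change -0.22, adjusted p = 0.0374) and PLOD2 without control library 2 (-0.28, adjusted p = 0.0436). Of 14 genes of folding and export, 0 passed. The collagen chaperone gene SERPINH1 stood at 304 ± 9.54 CPM with RBM24 and 311 ± 17.7 in the controls (SD, n = 3 each), with an edgeR log2 change of -0.03 and an adjusted p of 0.853. FKBP14 (-0.15, adjusted p = 0.382) and CREB3L1, a transcription factor gene of the secretory pathway (-0.71, adjusted p = 0.300), had the lowest p of the list. CREB3L1 held 15 to 40 counts per library, under 1 CPM, with overlapping groups.

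In the remaining lists, MMP1 alone was called. None of 7 tested genes of propeptide cleavage and none of 7 crosslinking genes passed. The lysyl oxidase gene LOX had a log2 change of -0.18 (edgeR adjusted p = 0.403), LOXL2 of 0.12 (adjusted p = 0.313), the peroxidasin gene PXDN of 0.60 at under 1 CPM (adjusted p = 0.363), and LOXL1 of 0.17 (adjusted p = 0.685). In the propeptide list the lowest p was that of ADAMTS3, which removes N-terminal propeptides, with overlapping groups and a log2 change of -0.33 (adjusted p = 0.295). BMP1, which removes C-terminal propeptides, had 0.12 (adjusted p = 0.463) and its enhancer gene PCOLCE -0.28 (adjusted p = 0.519). Of 9 tested receptor genes 0 passed. The collagen-binding integrin gene ITGA1 had a log2 change of -0.25 (adjusted p = 0.225), and the discoidin receptor gene DDR1, at 365 ± 14.4 CPM with RBM24 and 391 ± 20.5 in the controls (SD, n = 3 each), of -0.10 (adjusted p = 0.483). Of 6 tested collagenolytic protease genes, MMP1, the interstitial collagenase, was called. It had 5.24, 6.27 and 8.22 CPM in the RBM24 libraries and 4.11, 3.14 and 2.57 CPM in the control libraries, with no overlap (log2 change 1.01, SE 0.165, adjusted p = 0.00499). MMP14 had a log2 change of -0.14 (adjusted p = 0.285), CTSB of -0.12 (adjusted p = 0.323) and MMP13 of -0.09 (adjusted p = 0.776). On the FPKM values by limma, MMP1 did not pass (adjusted p = 0.102 to 0.275), while under the other alternatives on counts its adjusted p lay between 6.17e-17 (no filter) and 0.0163 (without control library 2). Of the small proteoglycans that coat fibrils, 3 of 8 were tested and 0 passed. LUM, at under 1 CPM, had a log2 change of -0.48 (edgeR adjusted p = 0.488) and BGN of -0.23 (adjusted p = 0.591). DCN held at most 5 counts in any library.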

How the data were processed

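Per the labels' protocols, total RNA was extracted with Trizol, treated with DNase and sequenced as paired reads. HISAT2 and the build GRCh38 are named per the submitters' processing notes. Its version, the counter, the annotation, the kit and the strand setting were not stated. The deposited count table holds raw counts made by the authors. The deposited FPKM table (31513 genes) holds values the authors divided by gene length and library total. NC columns were read as the control plasmid group and OE_RBM24 columns as RBM24.

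Counts were fitted with edgeR 4.0.16 (R 4.3.3): filterByExpr, TMM factors (0.976 to 1.02), a quasi-likelihood test on group with 4 residual degrees of freedom, and Benjamini-Hochberg adjustment over 17887 genes. Test and intervals also use degrees of freedom that edgeR borrows across genes. Intervals are 95% and cover the fit. Limma 3.58.1 (with a trend) and DESeq2 1.42.0 served as alternatives. No library copied another (chi-square per gene of 4.52 to 33.3). Positions and lengths come from GENCODE 29, which held all 41 identifiers, 3 in the same version. The principal transcript is the longest marked principal, or the longest of any kind for a gene with none so marked. Members, lists and pairs were chosen with earlier results of these data known. Every collagen could be named, and of each other list the called genes and up to 4 with the smallest p, or genes named after their values were seen (SERPINH1, MMP13 and the marker genes). The fit was run on simulated data with known changes, and its recovery of small changes is not given here.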

Additional observations from a re-analysis of the deposited data

How the results depend on the processing

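Of 15 alternatives, 0 called a collagen gene, and the lowest adjusted p in any was 0.146 (edgeR with no filter on low counts). Same-numbered libraries did not deviate together (correlations of 0.01, 0.06 and -0.00), so the numbers were not taken as pairs; with the replicate block, 0 collagen genes were called (lowest adjusted p = 0.212), and 158 genes rose and 135 fell over all. The direction was the same in 341 of 356 values of single collagen genes. It turned 15 times, in 6 genes. COL8A2 had a log2 change of 0.0173 with total counts only, 0.00788 with limma on log2(FPKM + 1) with or without the filter and 0.0151 on log2(FPKM + 0.1). Leaving out 1 library gave ranges of -0.0105 to 0.0603 for COL4A2, -0.0739 to 0.673 for COL4A4, -0.00206 to 0.0308 for COL5A1, -0.0900 to 0.0657 for COL8A2, -0.0463 to 0.0449 for COL9A3 and -0.0780 to 0.171 for COL28A1, and of -0.100 to 0.0247 for the log2 change in the ratio of COL4A6 to COL4A5, an alternative chosen after seeing the data, as was the transcript length. The causes were not tested.

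The median log2 change of the collagen genes was 0.0463 with total counts only, which moves all genes up (223 called higher and 106 lower, against 153 and 122), and -0.00125 to 0.0462 with 1 library left out. The difference in collagen share lay between -0.000236 and 0.00252 percentage points with 1 library left out. A threshold of 2 FPKM left 9 collagen genes. Over all genes, calls were 305 higher and 341 lower with no filter, 46 and 4 with limma on log2(FPKM + 1), 57 and 5 on log2(FPKM + 0.1), 15 and 4 by the first of these without the filter, and 61 to 171 higher and 29 to 198 lower with 1 library left out. They were 69 lower without control library 1 and 198 without control library 3, 70 higher and 31 lower without RBM24 library 1, and 61 and 29 without RBM24 library 2. In the modification list, 1 gene (PLOD2) was called with no filter and 0 to 1 with 1 library left out, and in the protease list 0 on the FPKM values. Depth limits the 10 low and 17 near-silent genes.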
